A study of Homo sapiens with 8 samples.

Results

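The homologous recombination and Fanconi anemia genes repair DNA breaks and crosslinks, and they were followed here in IGROV-1, a long-used cell line from a human ovarian carcinoma, after the immune agonist CpG-ODN was given to the tumor-bearing mouse. The set was a list of 38 genes, drawn up with earlier results of these data known. A probe was kept where the platform annotation named 1 of these genes and the array software gave a detection p under 0.05 on at least 4 of the 8 arrays. That left 38 probes of 29 genes, out of 18184 kept probes and 11023 named genes on the array.

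The cells had been adapted to grow in the peritoneal cavity and were carried by serial passage of ascites from mouse to mouse. Every mouse received ascitic cells into the peritoneum, and treatment began 10 to 11 days later, once ascites was established. CpG-ODN mice were given a phosphorothioate oligonucleotide, ODN1826, into the peritoneum at 20 µg per mouse, either on 3 days in a row or as 1 dose, and control mice received saline. Tumor cells adhering to the peritoneal wall were taken 24 hours after the last dose, with 4 mice per group by the study's design and 4 arrays per group. The sources used here do not say which arrays had which CpG-ODN schedule, nor which array came from which mouse, nor the strain of the hosts. CpG-ODN is a synthetic ligand of Toll-like receptor 9, a sensor of unmethylated CpG DNA.

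Homologous recombination copies an intact sister chromatid to mend a double-strand break. The MRE11-RAD50-NBN complex recognises the end, nucleases and helicases resect it, the BRCA1, PALB2 and BRCA2 proteins and a group of mediators prepare strand exchange, and the joint molecules that form are dissolved or cut. The Fanconi anemia proteins act on crosslinks between the DNA strands: a core complex, with UBE2T, attaches ubiquitin to FANCD2 and FANCI, which then guide nucleases and recombination. Inherited loss of several of these genes predisposes to ovarian carcinoma, and tumors that lack them are sensitive to platinum drugs and to inhibitors of PARP.

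All 38 genes can be accounted for. On the array, BRCA2, RBBP8, FANCA and FANCD2, had no probe named in the annotation used here and were not analysed here. RAD50, RAD52, BRIP1, FANCF and FANCM were named on 1 or 2 probes each, none of which was kept. The other 29 genes had 1, 2 or 3 kept probes, and 27 of the 38 kept probes were detected on all 8 arrays. The filter admitted RAD51D and the dimmer probe of FANCB on their 4 saline arrays alone, so these had to be higher in saline in order to enter. A RAD51B probe came in with 3 saline arrays and 1 CpG-ODN array, and just outside the filter, with 3 arrays, lay a probe each of BRIP1, RAD52 and RAD51D. Normalized log2 signal over the 8 arrays ran from 5.09 to 6.42 for the BRIP1 probe, from 5.12 to 6.21 for that RAD51B probe, from 4.96 to 6.16 for RAD52 and from 5.28 to 6.37 for the dimmer RAD51D probe.

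The promoters of these genes were read from RefSeq (GRCh38.p14), as windows of 250 bases before to 50 bases after each annotated start. Of the 38 genes, 34 had a window, and NBN, WRN, RAD54B and FANCI were not in the table. Each window was searched on both strands for a site of the E2F factors, which time gene expression to S phase (any of TTTCCCGC, TTTCGCGC, TTTGCCGC and TTTGGCGC), for the CCAAT box bound by NF-Y, and for TTTGAA, the cell cycle homology region. Overlap between motifs was allowed. A few windows are shown because they belong to RMI1 and RAD54L, which fell at least 2-fold, to EXO1, which fell and carries an E2F match, and to XRCC2, which carries one and was not called. Capitals mark the matches to any of the motifs, and each sequence runs from 5′ to 3′ on the strand of the gene.
RMI1 upstream window, chr9:83980109-83980408, plus strand: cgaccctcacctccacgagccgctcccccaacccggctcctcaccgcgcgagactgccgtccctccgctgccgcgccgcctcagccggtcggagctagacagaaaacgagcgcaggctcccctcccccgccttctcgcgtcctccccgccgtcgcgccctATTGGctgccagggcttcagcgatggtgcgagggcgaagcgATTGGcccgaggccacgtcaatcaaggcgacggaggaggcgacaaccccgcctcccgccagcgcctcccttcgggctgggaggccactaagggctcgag
RMI1 downstream window, chr9:83980555-83980854, plus strand: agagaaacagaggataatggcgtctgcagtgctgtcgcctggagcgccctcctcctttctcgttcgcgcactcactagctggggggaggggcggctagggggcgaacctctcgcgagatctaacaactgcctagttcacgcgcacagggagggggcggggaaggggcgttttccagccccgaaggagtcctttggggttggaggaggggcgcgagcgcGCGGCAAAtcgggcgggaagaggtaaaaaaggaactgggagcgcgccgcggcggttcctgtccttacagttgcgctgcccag
RAD54L, chr1:46247438-46247737, plus strand: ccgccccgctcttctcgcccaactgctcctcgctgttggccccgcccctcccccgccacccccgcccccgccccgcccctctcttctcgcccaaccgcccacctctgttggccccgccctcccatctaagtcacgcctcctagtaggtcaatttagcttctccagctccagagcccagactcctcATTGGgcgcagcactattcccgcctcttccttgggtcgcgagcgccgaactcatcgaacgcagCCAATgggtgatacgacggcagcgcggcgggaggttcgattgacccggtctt
EXO1, chr1:241847954-241848253, plus strand: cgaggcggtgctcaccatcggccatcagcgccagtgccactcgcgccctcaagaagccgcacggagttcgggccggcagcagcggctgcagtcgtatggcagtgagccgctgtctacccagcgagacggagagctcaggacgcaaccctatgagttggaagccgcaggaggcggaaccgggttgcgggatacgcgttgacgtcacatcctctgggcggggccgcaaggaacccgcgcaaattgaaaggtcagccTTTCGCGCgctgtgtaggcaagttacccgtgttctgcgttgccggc
XRCC2, chr7:152676092-152676391, minus strand: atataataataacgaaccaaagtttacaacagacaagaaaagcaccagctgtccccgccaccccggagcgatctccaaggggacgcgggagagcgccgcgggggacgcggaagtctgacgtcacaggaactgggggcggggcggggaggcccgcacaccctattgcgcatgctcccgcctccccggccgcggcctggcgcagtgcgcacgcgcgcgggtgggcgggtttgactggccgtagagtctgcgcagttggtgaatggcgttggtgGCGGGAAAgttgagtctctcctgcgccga

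Among the 14 genes with a probe that fell and a window, 2 held an E2F match, EXO1 and RMI1. Among the other 11 genes with a kept probe, 3 did, namely XRCC2, GEN1 and FANCC. The 14 include RAD51D and FANCB, whose falling probes were kept through saline alone, and RAD51C, whose brightest probe was not called. An E2F match was present in 6.54% of the 8991 genes that had both a kept probe and a window. It was present in 8.35% of the 1628 of these with a probe called lower, and in 3.31% of all windows. The CCAAT box was found in 8 of the 14 and 3 of the 11. Its share was 43.9% of the 8991 genes, 46.9% of the 1628 and 34.6% of all windows. TTTGAA was found in 1 gene of each group, against 14% of the 8991 genes, 16.2% of the 1628 and 15.2% of all windows. A match describes the letters alone, and the absence of these letters says nothing of a factor.

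More of the measured repair genes were called lower than higher in CpG-ODN arrays. Of the 38 probes, 21 were called lower and 1 higher at an adjusted p under 0.05, and 16 were not called. Across the whole array 13.9% of kept probes were called lower and 12.8% higher, and 55.3% of the probes of these genes were called lower. The median log2 fold change was -0.68, beside 0.01 for all kept probes. The ranges of the groups were separate, with CpG-ODN lower, for 21 of the 38 probes, beside 14.9% of all kept probes. These were the same 21 that were called lower. RAD51D and the dimmer FANCB probe, which entered through saline alone, are among the 21. A fitted fall of at least 2-fold was called for 12 of the 38, beside 3.55% of all kept probes. For RAD51D and the dimmer FANCB probe among these only a smaller bound holds. The dimmer BRCA1 probe, also among the 12, was detected on 1 CpG-ODN array, so the size of its fall rests partly on readings below detection. Since a probe could enter through saline alone, the counts were repeated with no filter and with a filter on the mean detection p. The latter left out RAD51D and the dimmer FANCB probe. With no filter 21 of the 56 named probes were called lower (37.5%, beside 4.27% of all probes), and with a mean detection p under 0.05 it was 18 of 32 (56.2%, beside 15%). Counted by the brightest kept probe, 15 of 29 genes fell and 1 rose, where 16.3% and 12.9% of all genes did. RAD51D is among the 15, and with a block on replicate number 13 genes fell.

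**Figure D1:**
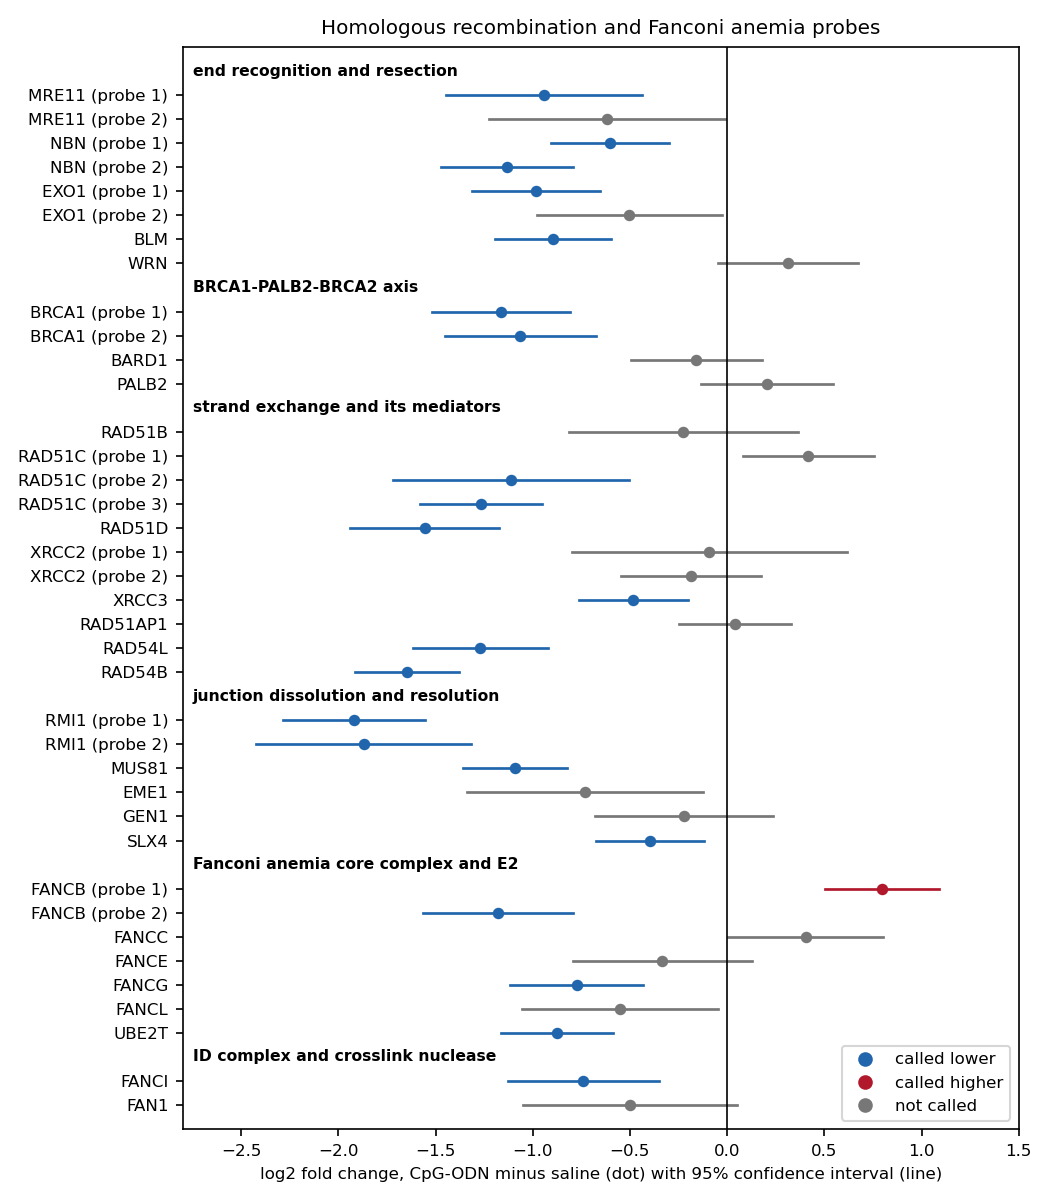
Log2 fold change of CpG-ODN over saline (x axis) for each of the 38 kept probes, grouped by role, with the 95% confidence interval of the limma fit as a line; probe 1 is the brightest of a gene. Blue probes were called lower, red higher and grey were not called. RMI1 and RAD54B lie furthest to the left and FANCB has a probe on each side. RAD51D and probe 2 of FANCB were kept through saline arrays alone. Their direction was a condition of entry, so only the bounds in the text hold for them.

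RMI1 had the largest fitted fall among the 38 probes, by both of its probes. It is the partner of the BLM helicase and topoisomerase IIIα, the complex that dissolves double Holliday junctions. Its brighter probe, on the log2 signal scale after normalization, read 9.79, 10.01, 10.32 and 9.95 in saline replicates 1 to 4 and 7.84, 8.29, 8.36 and 7.90 in CpG-ODN replicates 1 to 4. Every saline array was thus more than 1 unit above every CpG-ODN array, and the log2 change was -1.92 ± 0.17 (SE, adjusted p = 8.02e-05), a 3.79-fold fall. The dimmer RMI1 probe gave 8.86, 8.95, 8.92 and 9.07 in saline and 6.20, 7.32, 7.35 and 7.45 with CpG-ODN, a change of -1.87 ± 0.25 (adjusted p = 0.000561). CpG-ODN replicate 1 stood below the other 3 arrays there, and without it the change was -1.58. The difference between the changes of these probes was -0.05 (95% interval -0.58 to 0.48).

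MUS81, the structure-specific nuclease that cuts joint molecules, read 8.99, 9.18, 9.35 and 9.11 in saline and 8.14, 8.14, 7.94 and 8.03 with CpG-ODN. The groups were separate, with a log2 change of -1.09 ± 0.12 (adjusted p = 0.000218). Its obligate partner EME1 was dimmer and spread more widely, 5.91 to 7.05 in saline and 5.29 to 6.17 with CpG-ODN. The EME1 change of -0.73 (95% interval -1.34 to -0.13) did not pass (adjusted p = 0.0726), and 2 of 4 CpG-ODN arrays detected it. SLX4, the scaffold that gathers MUS81 and other nucleases, read 9.03, 8.76, 9.15 and 9.02 in saline and 8.46, 8.73, 8.57 and 8.62 with CpG-ODN. That was the smallest called fall, at -0.40 ± 0.13 (adjusted p = 0.0404), and the lowest saline value lay just above the highest CpG-ODN value. Its call was lost in 10 of 20 alternatives, with an adjusted p up to 0.102. GEN1, a resolvase that cuts Holliday junctions by itself, stood at -0.22 (95% interval -0.68 to 0.23, adjusted p = 0.471).

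Among factors of strand exchange, RAD54B and RAD54L, translocases that act in the pairing of strands, fell together. RAD54B read 8.50, 8.81, 8.55 and 8.63 in saline and 6.85, 6.96, 7.13 and 6.97 with CpG-ODN. Its log2 change of -1.65 ± 0.12 (adjusted p = 5.11e-05) ranked 22 of 18184 probes by p, the highest rank among these genes. RAD54L read 8.08, 7.73, 8.41 and 7.90 in saline and 6.62, 6.74, 6.80 and 6.90 with CpG-ODN. The lowest saline array was again clear of the highest CpG-ODN array, with a change of -1.27 ± 0.16 (adjusted p = 0.00038). RAD51AP1, which stimulates the same pairing step, kept levels between 10.28 and 10.65 in saline and between 10.33 and 10.61 with CpG-ODN. The groups overlapped there, and the change of 0.04 had a 95% interval from -0.25 to 0.33 (adjusted p = 0.853).

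RAD51B, RAD51C, RAD51D, XRCC2 and XRCC3, which form complexes that aid strand exchange, did not move as a block. RAD51D read 6.68, 6.59, 6.99 and 6.40 in saline and 4.92, 5.19, 5.47 and 4.85 with CpG-ODN. No CpG-ODN array detected it, so only a bound can be given: RAD51D was lower by a factor of at least 1.84. Since this probe was kept through its saline arrays alone, its direction was a condition of entry and no p is given. The bound takes each CpG-ODN array at its weakest detected signal, or at the probe's own reading where that is greater. XRCC3 read 8.07, 7.98, 7.91 and 8.10 in saline and 7.28, 7.61, 7.70 and 7.53 with CpG-ODN. It fell by less than RAD54B, with a change of -0.48 ± 0.13 (adjusted p = 0.0179), and blocking on replicate number removed that call (adjusted p = 0.0544). XRCC2 varied widely within the groups, 9.84 to 11.29 in saline against 9.86 to 10.85 with CpG-ODN. Its change of -0.09 had a 95% interval from -0.80 to 0.62, which spans a fall as large as that of FANCG or FANCI. The dimmer XRCC2 probe stood at -0.18 (adjusted p = 0.447) and RAD51B at -0.22 (95% interval -0.81 to 0.36, adjusted p = 0.581).

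RAD51C, the subunit shared by both of these complexes, gave opposite readings from different probes. Its brightest probe read 11.50, 11.05, 11.18 and 11.53 in saline and 11.57, 11.73, 11.99 and 11.63 with CpG-ODN. All 4 CpG-ODN arrays lay above all 4 saline arrays, but the change of 0.42 (95% interval 0.08 to 0.75) missed the threshold (adjusted p = 0.0669). The next probe read 8.45, 8.82, 8.57 and 9.25 in saline and 6.81, 7.95, 7.94 and 7.94 with CpG-ODN, a change of -1.11 ± 0.27 (adjusted p = 0.0135). Here CpG-ODN replicate 1 was far below its group, and the change without it was -0.83 (adjusted p = 0.0138). The dimmest kept probe read 8.12, 8.14, 8.35 and 8.55 in saline and 7.15, 6.78, 7.11 and 7.05 with CpG-ODN, a change of -1.27 ± 0.14 (adjusted p = 0.000227). The platform annotation lists the brightest probe under one RefSeq transcript of RAD51C and the probes that fell under another. The difference between the changes of the 2 brightest probes was 1.53 ± 0.26 (adjusted p = 0.0052), where 7.29% of 2855 genes with at least 2 kept probes had such a difference.

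FANCB, a structural subunit of the Fanconi anemia core complex, also had probes with opposite readings. The brighter probe read 7.71, 7.28, 7.42 and 7.40 in saline and 8.28, 8.09, 8.24 and 8.40 with CpG-ODN, and rose by 0.80 ± 0.13 (adjusted p = 0.0018). It was the only probe of these genes called higher. The dimmer probe read 6.36, 6.77, 6.66 and 6.86 in saline and 5.75, 5.33, 5.14 and 5.72 with CpG-ODN, where no array detected it, and was lower by a factor of at least 1.84. It too was kept through saline alone, so that its direction was a condition of entry and the difference between the FANCB probes is given as values without a test. The annotation places these probes under different transcripts as well. Of the other 7 genes with at least 2 kept probes, RAD51C was the one for which the difference between probes passed.

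**Figure D2:**
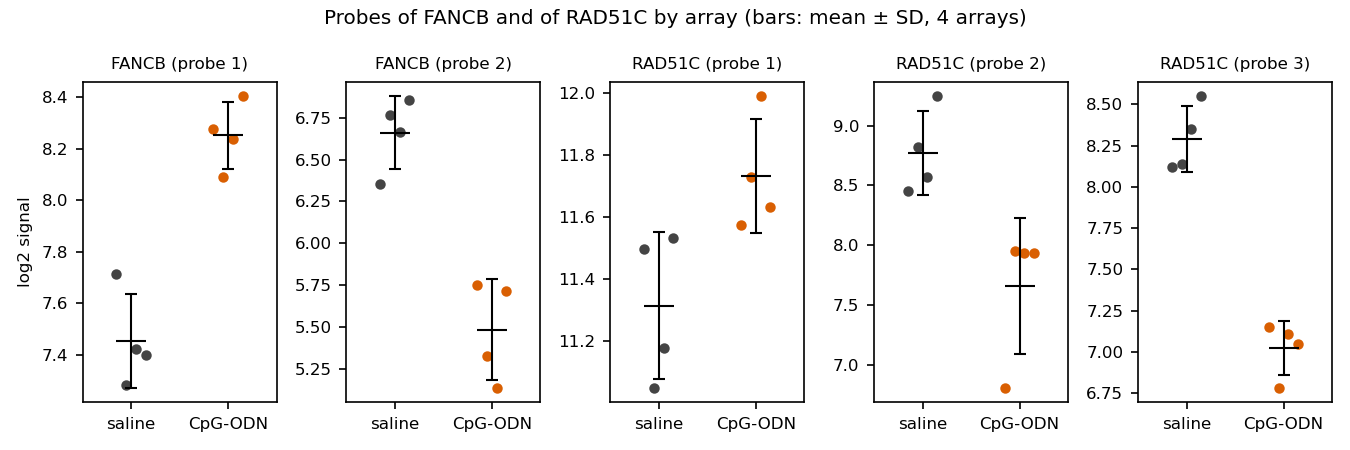
Normalized log2 signal (y axis, a separate scale in each panel) of the kept probes of FANCB and RAD51C on the 4 saline (grey) and 4 CpG-ODN (orange) arrays; bars are the mean ± SD. Probe 1 of each gene is higher with CpG-ODN on all 4 arrays and the remaining probes are lower. For probe 2 of FANCB, kept through saline arrays alone, that direction was a condition of entry.

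BRCA1, the ubiquitin ligase that promotes resection, fell by both of its probes. The brighter read 7.45, 7.55, 7.49 and 7.38 in saline and 5.84, 6.51, 6.52 and 6.35 with CpG-ODN, a change of -1.16 ± 0.16 (adjusted p = 0.000673). The dimmer read 6.72, 6.16, 6.91 and 6.76 in saline and 5.42, 5.56, 5.84 and 5.47 with CpG-ODN, a change of -1.06 ± 0.18 (adjusted p = 0.00178), though 1 of 4 CpG-ODN arrays detected it. The groups were separate for both probes. BARD1, the obligate partner of BRCA1 in the ligase, overlapped between the groups, with a range of 8.66 to 9.07 in saline and of 8.36 to 8.91 with CpG-ODN. BARD1 stood at -0.16 (95% interval -0.50 to 0.18, adjusted p = 0.489). PALB2, which bridges BRCA1 and BRCA2, read 7.48, 7.46, 6.95 and 7.48 in saline and 7.49, 7.36, 7.72 and 7.62 with CpG-ODN. Its groups overlapped too, at 0.20 (95% interval -0.13 to 0.54, adjusted p = 0.362), and saline replicate 3 was the array below the rest.

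At the start of the pathway, where ends are recognised and resected, 5 of 8 probes fell and 0 rose, where 13.9% and 12.8% of all kept probes did. NBN, the signalling subunit that brings the ATM kinase to breaks, fell by both probes. The brighter NBN probe read 10.94, 11.08, 10.89 and 11.22 in saline and 10.19, 10.51, 10.65 and 10.39 with CpG-ODN, a change of -0.60 ± 0.14 (adjusted p = 0.00924). The dimmer NBN probe read 8.0, 7.95, 8.42 and 8.29 in saline and 6.75, 7.08, 7.24 and 7.07 with CpG-ODN, a change of -1.13 ± 0.15 (adjusted p = 0.000636). The dimmer probe thus gave the larger fall, a difference of 0.53 ± 0.17 that did not pass over all such pairs (adjusted p = 0.0897). MRE11, the nuclease of the complex, read 7.31, 7.45, 6.72 and 7.11 in saline and 6.39, 6.08, 6.67 and 5.68 with CpG-ODN. The lowest saline array came close to the highest CpG-ODN array, with a change of -0.94 ± 0.23 (adjusted p = 0.0122). Its dimmer probe overlapped between the groups, at -0.62 (95% interval -1.23 to -0.01, adjusted p = 0.122). Of the 4 CpG-ODN arrays, 3 detected the brighter MRE11 probe and 2 the dimmer.

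EXO1, the long-range resection nuclease, read 9.20, 9.37, 9.48 and 9.65 in saline and 8.15, 8.54, 8.45 and 8.63 with CpG-ODN. Its groups were separate, with a change of -0.98 ± 0.15 (adjusted p = 0.0011), while the dimmer EXO1 probe stood at -0.50 (95% interval -0.98 to -0.03, adjusted p = 0.111). BLM, the helicase that serves in resection and, with RMI1, in dissolution, read 8.60, 8.99, 8.88 and 8.99 in saline and 8.03, 8.02, 7.76 and 8.06 with CpG-ODN. It fell by a log2 change of -0.90 ± 0.13 (adjusted p = 0.00107). WRN, a helicase of the same RecQ family, went the other way without passing: saline arrays ran from 9.66 to 9.90 and CpG-ODN arrays from 9.77 to 10.41. The WRN change was 0.31 (95% interval -0.05 to 0.67, adjusted p = 0.186).

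**Figure D3:**
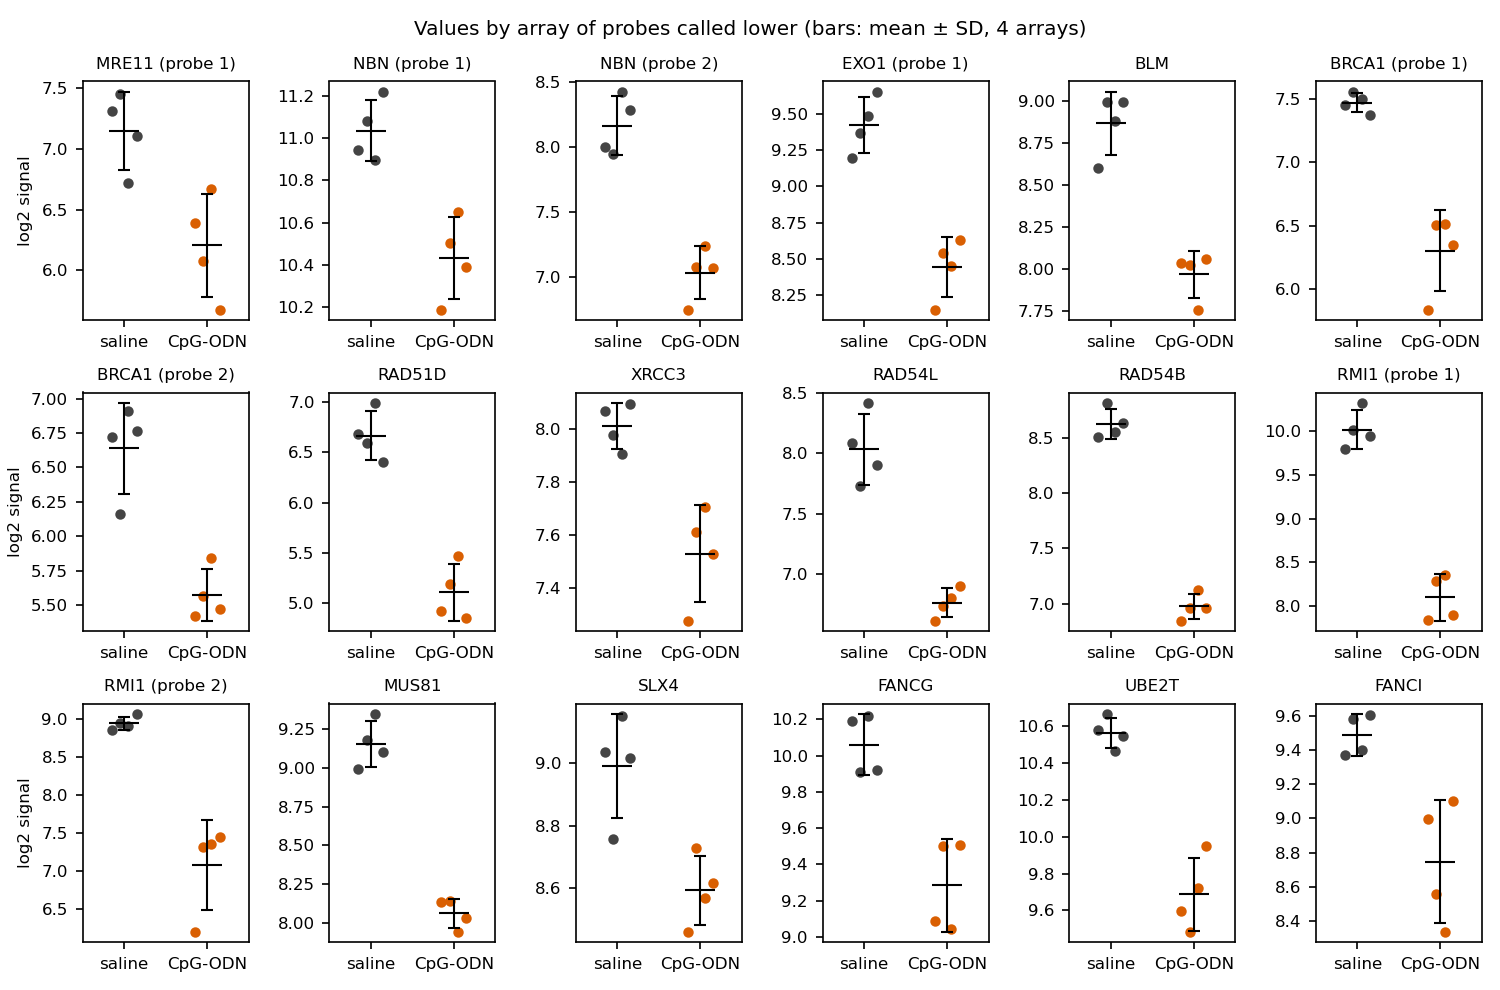
Normalized log2 signal (y axis, a separate scale in each panel, not starting at 0) of the 18 probes called lower other than those of FANCB and RAD51C, on the 4 saline (grey) and 4 CpG-ODN (orange) arrays; bars are the mean ± SD. In each panel all 4 CpG-ODN arrays lie below all 4 saline arrays. For RAD51D, which no CpG-ODN array detected, that direction was a condition of entry.

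In the Fanconi anemia branch, UBE2T, the enzyme that hands ubiquitin to FANCD2 and FANCI, read 10.58, 10.66, 10.46 and 10.54 in saline and 9.60, 9.49, 9.72 and 9.95 with CpG-ODN. The fall was -0.87 ± 0.13 on the log2 scale (adjusted p = 0.00103). FANCI, which is its substrate, read 9.37, 9.58, 9.40 and 9.60 in saline and 8.99, 8.56, 8.34 and 9.10 with CpG-ODN, a change of -0.74 ± 0.18 (adjusted p = 0.0115). FANCG, a core complex subunit, read 10.19, 9.91, 10.22 and 9.92 in saline and 9.09, 9.50, 9.04 and 9.51 with CpG-ODN, a change of -0.77 ± 0.15 (adjusted p = 0.00468). These groups did not overlap in any of the 3 genes. The catalytic subunit FANCL stood at -0.55 (95% interval -1.06 to -0.05, adjusted p = 0.1), with CpG-ODN arrays from 7.01 to 8.17 and saline arrays from 8.06 to 8.49. FANCE, which links the core complex to FANCD2, stood at -0.33 (adjusted p = 0.27), and FAN1, a nuclease drawn to ubiquitinated FANCD2, at -0.50 (95% interval -1.05 to 0.05, adjusted p = 0.168). FANCC was near background, with 2 saline and 3 CpG-ODN arrays detecting it, and stood at 0.40 (95% interval 0.01 to 0.80, adjusted p = 0.125). Within each of these 4 genes the groups overlapped.

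By role, and by the brightest kept probe, 4 of 5 genes of end recognition and resection fell, 3 of 5 of junction dissolution and resolution, 4 of 8 of strand exchange and its mediators, 1 of 3 around BRCA1 and PALB2, 2 of 6 of the core complex with UBE2T, and 1 of 2 of FANCI and FAN1, where 16.3% of all genes fell. The medians were -0.90, -0.73, -0.35, -0.16, -0.44 and -0.62 in that order, and no difference between roles was tested. RAD51D, whose direction was a condition of entry, is counted in the 4 of 8 and in the median of -0.35. Of the 16 probes that were not called, 11 had a negative and 5 a positive change.

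A further 50 genes of these pathways were listed beside the members, 45 of them with a kept probe. Of these, 10 fell (22.2%) and 1 rose (2.22%), where 16.3% and 12.9% of all genes did, and the median was -0.17. The share that fell was thus little above that of all genes. FIRRM, a partner of the AAA protein FIGNL1, fell by -2.14 ± 0.29 (adjusted p = 0.000602), but 1 of 4 CpG-ODN arrays detected it. PSMC3IP, a cofactor of strand exchange, changed by -1.33 ± 0.20 (adjusted p = 0.00104). DNA2, the other long-range resection nuclease, changed by -0.73 ± 0.13 (adjusted p = 0.00262). RMI2, another subunit of the dissolution complex beside RMI1, changed by -0.98 ± 0.18 (adjusted p = 0.00309), and the topoisomerase of that complex, TOP3A, stood at -0.10 (adjusted p = 0.771). MMS22L, which acts at stalled forks, changed by -1.20 ± 0.22 (adjusted p = 0.00274) and CENPS, a subunit of the FANCM anchor complex, by -0.76 ± 0.14 (adjusted p = 0.0032). UIMC1, of the BRCA1-A complex, rose by 0.51 ± 0.15 (adjusted p = 0.0307). UIMC1 and TOP3A were chosen after their values were seen. The call of UIMC1 was lost in the repeats without saline replicate 4, CpG-ODN replicate 2 or CpG-ODN replicate 4. It was also lost with median scaling, with no filter, with detection on at least 1 array and with the replicate block.

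**Figure D4:**
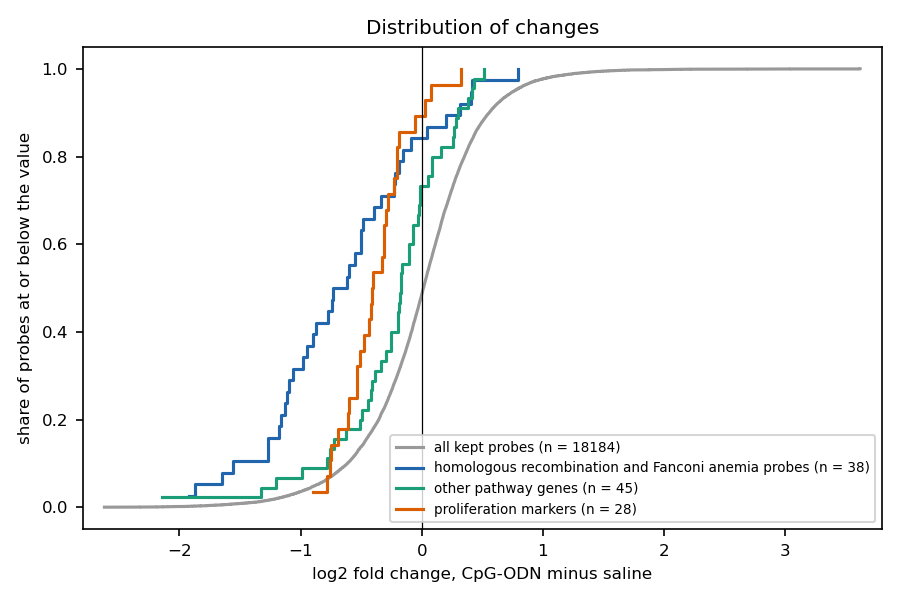
Cumulative share of probes (y axis) at or below each log2 fold change of CpG-ODN over saline (x axis), for all 18184 kept probes, the 38 probes of the homologous recombination and Fanconi anemia genes, 45 other genes of the pathways and 28 proliferation markers. The medians are 0.01, -0.68, -0.17 and -0.40.

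Many of these repair genes are expressed in S and G2 phase, and some proliferation markers were lower as well. Of 32 listed, 28 had a kept probe, and 12 fell, 0 rose and 16 were not called, with a median of -0.40, where 16.3% of all genes fell and 12.9% rose. MCM6, a subunit of the replicative helicase, changed by -0.75 ± 0.12 (adjusted p = 0.00122), CCNE1, the cyclin of S phase entry, by -0.90 ± 0.14 (adjusted p = 0.00136), CDC45 by -0.69 ± 0.12 (adjusted p = 0.00219) and CDK1 by -0.75 ± 0.17 (adjusted p = 0.00913). Among those not called, and chosen here after their values were seen, PLK1 stood at 0.32 with all CpG-ODN arrays above all saline arrays (adjusted p = 0.138), CDT1 at 0.08, PCNA at 0.03 and MCM2 at -0.05. Summed over the 28 markers, linear signal was 92655 to 114078 on saline arrays and 73411 to 86750.5 on CpG-ODN arrays, and GINS1 and CCNE2 were detected on no array. Their part in the lower repair signals was not tested. In bulk samples, fewer cells of a type and less RNA per cell cannot be told apart.

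The labelled cell type was borne out by 11 of 13 listed markers of ovarian carcinoma epithelium with a kept probe, EPCAM, PAX8, FOLR1 and MUC16 among them. WT1 was detected on no array. Of the 11, KRT18 rose and 0 fell, and their summed signal was 83981 to 89049 on saline arrays and 72726 to 82598 on CpG-ODN arrays. Of 9 macrophage markers 4 were kept, with 2 higher and 1 lower, and PTPRC, CSF1R and MRC1 were detected on no array. The macrophage sum was 5483 to 7372 on saline arrays and 6957 to 10591 on CpG-ODN arrays. It came mostly from CD68, at 12.28 in saline and 12.92 with CpG-ODN on the log2 scale, while AIF1 went from 9.80 to 8.71. Of 5 endothelial markers 3 were kept and 2 rose (sum 546 to 640 in saline, 834 to 1133 with CpG-ODN). Of 8 fibroblast markers 3 were kept and 1 fell (sum 1980 to 2628 in saline, 1031 to 1237 with CpG-ODN), while COL1A2, COL3A1, LUM and THY1 were detected on no array. The fibroblast sum was mostly ACTA2, which went from 11.07 to 9.92, and neither DCN (0.45) nor COL1A1 (-0.04) was called. Of 4 mesothelial markers 3 were kept, 1 higher and 1 lower (sum 768 to 879 in saline, 608 to 767 with CpG-ODN), and 0 of 7 lymphocyte markers were kept. The part of these cells in the repair signals was not tested, and neither was the binding of mouse transcripts to these human probes.

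Across the whole array, mean raw signal was 876 to 1079 on saline arrays and 806 to 1073 on CpG-ODN arrays, and detected probes numbered 18784 to 20114 and 18425 to 18570. The number of detected probes thus separated the groups, and its part in the calls was not tested. The direction of calls over all probes depended on the scaling. Quantile normalization gave 2521 lower and 2322 higher, scaling to the median of all probes gave 2775 lower and 858 higher with the overall median at -0.10, and scaling to the median of the kept probes gave 2195 lower and 2920 higher with the overall median at 0.10. The repair probes called lower numbered 21, 25 and 21 in these settings, and their medians were -0.68, -0.79 and -0.59. With no background correction the same number of probes, 21, was called lower but the median was -0.33.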

How the data were processed

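RNA from 8 samples of IGROV-1 cells, 4 saline and 4 CpG-ODN, was measured on 1-colour Illumina bead arrays. Per the file headers, the deposited table gives non-normalized signal intensity and a detection p-value for each of 48797 probes. A second deposited table holds intensity normalized by the authors, by a method not given in the sources used here, and served as an alternative. The submitters' processing notes name BeadStudio and no version of it. All 8 arrays were mapped to groups by their titles, and 0 value columns were left unmapped.

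Here, intensities were background corrected from the detection p-values, given an offset of 16, quantile normalized and put on the log2 scale (neqc, limma 3.58.1, R 4.3.3). Probes with a detection p under 0.05 on at least 4 of 8 arrays were kept (18184). Each was tested with limma's lmFit and eBayes, two-sided, for CpG-ODN minus saline, with p-values adjusted by Benjamini-Hochberg across the kept probes and called at 0.05. Intervals are 95%. A gene was represented by its brightest kept probe. The difference between the 2 brightest probes of a gene was fitted per array over the 2855 genes with such a pair and adjusted over them. The fit was tested on simulated data. Probes were named from the platform annotation, updated by gene identifier through the RefSeq table (28059 probes, and 39 by symbol alone). A single gene was given for 14584 kept probes, several genes for 3, and no name here for 3597.

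Every kept probe of the 38 genes is described, with values by array for called probes and for PALB2. Of the other pathway genes up to 6 with the smallest p are named, and likewise the leading proliferation markers. The members and lists were chosen with earlier results of these data known. The labels do not tie arrays to mice, so p-values measure only the spread between arrays, and the number of arrays limits the precision. Alternatives were other background corrections, scalings, filters for dim probes, a mean-variance trend, weights by array, the authors' table, a replicate block and leaving out each array. Scaling to the median of the kept probes was chosen after seeing the data.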

Additional observations from a re-analysis of the deposited data

Results flagged for a closer look

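In 5 of 80 groups of 4 arrays, 1 array stood further from the others than Dixon's 95% critical value for the gap over the range, and chance gives about 1 group in 20. In the next RAD51C probe after the brightest, CpG-ODN replicate 1 read 6.81 where the other 3 arrays read 7.94 to 7.95, a ratio of 0.989, and the change without it was -0.83 (adjusted p = 0.0138). In the dimmer RMI1 probe the same array read 6.20 where the others read 7.32 to 7.45, a ratio of 0.892, and the change without it was -1.58 (adjusted p = 0.000196). For PALB2, saline replicate 3 read 6.95 beside 7.46 to 7.48, a ratio of 0.955. For BLM, CpG-ODN replicate 3 read 7.76 beside 8.02 to 8.06, a ratio of 0.866. The mean raw signal of saline replicate 1 was 1079 beside 876 to 906, a ratio of 0.852.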

How the results depend on the processing

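Of the 22 called probes, 20 kept their call and direction in each of the alternatives that included them. The exceptions were SLX4, lost in 10 of 20 (without saline replicates 1, 3 or 4 and without CpG-ODN replicates 1, 3 or 4 among them), and XRCC3, lost with the replicate block. RAD51D and the dimmer probes of FANCB and BRCA1 had 19 alternatives, as the filter on mean detection p left them out. For RAD51D and the dimmer FANCB probe, direction was a condition of entry. Over 754 comparisons of single probes with their reported value, 722 kept direction and side of the threshold, 14 became called, 11 lost the call and 7 changed sign, all 7 in probes that were not called. Those were PALB2 at -0.016 and RAD51AP1 at -0.086 with median scaling, RAD51AP1 between -0.010 and 0.12 without 1 array, and the brighter XRCC2 probe between -0.35 and 0.13 without 1 array. The brightest RAD51C probe was called higher in 5 alternatives, with an adjusted p down to 0.0211.

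The number of repair probes called higher was 2 with no background correction, normexp, the authors' table or a mean-variance trend, and 3 with scaling to the kept probes' median. Counted by gene it was 2, 2, 2, 2 and 3, and 0 with the mean of a gene's probes. Their median was -0.33 with no background correction, -0.48 with normexp, -0.79 with median scaling, -0.59 with scaling to the kept probes, -0.33 in the authors' table, -0.39 with no filter, -0.53 with detection on at least 1 array, and -0.76 to -0.60 without 1 array. Median scaling left 858 kept probes called higher. Other pathway genes called higher numbered 4 with no background correction, the authors' table, a trend or the mean of a gene's probes, 3 with normexp or kept-probe scaling, 2 with the mean detection p, and 0 with median scaling, no filter, detection on at least 1 array or the replicate block. Without 1 array that count was 0 to 2 (0 without saline replicate 4, CpG-ODN replicate 2 or CpG-ODN replicate 4, and 2 without saline replicate 1). The causes were not tested.

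The arrays share replicate numbers, but same-numbered arrays deviated together with correlations of -0.27 to 0.09, and 1 of 4 saline arrays correlated best with its own number, so the numbers were not taken as pairs. With the replicate block 19 repair probes were called lower and 1 higher, and over all probes 2115 lower and 1839 higher. A slide block was not run, since no chip label was used here. Probes near background bound what can be seen for MRE11, RAD51B, RAD51D, EME1, GEN1, FANCC and the dimmer probes of FANCB, BRCA1, EXO1 and XRCC2.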
